A study of Mus musculus with 12 samples.

Results

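The BCL2 family of apoptosis genes was measured in mammary tumors of MMTV-Neu mice, a model of HER2+ breast cancer, fed a control diet or a diet with a ligand of the retinoid X receptor (RXR). Its 10 members were chosen by gene symbol from the 54532 genes of the count and FPKM tables. They were the anti-apoptotic genes Bcl2, Bcl2l1 and Mcl1, the pore-forming effectors Bax and Bak1, and the BH3-only genes Bcl2l11, Bbc3, Pmaip1, Bid and Bad. All 10 were listed in both tables, and 10 of 10 passed the filter on low counts, which left 15504 genes for testing.

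Poly(A) RNA from 12 tumors was sequenced, 4 from each of 3 groups. All mice, the controls included, were transgenic for Neu in its normal, non-mutant form, expressed in the mammary gland from the promoter of the mouse mammary tumor virus (MMTV). Once a tumor reached 4 mm in diameter, the mouse received control powdered chow, the RXR agonist MSU-42011 at 100 mg/kg diet, or the RXR agonist bexarotene at 100 mg/kg diet, each for 10 days. The labels give no age for the mice. Nothing in the labels ties a tumor to a litter or batch, so an effect of either could not be modeled or told apart from diet. The p-values set differences between groups against the spread between these tumors. The RNA came from sections of whole tumor, in which fewer cells of a type and less RNA per cell cannot be told apart.

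BCL2 family proteins set the threshold at which the mitochondrial outer membrane is opened during apoptosis. Anti-apoptotic members bind and hold the effectors and the BH3-only proteins, the effectors oligomerize into pores that release cytochrome c, and BH3-only proteins sense stress and either activate effectors or occupy the anti-apoptotic members. Much of this control acts on protein stability, phosphorylation and cleavage, which mRNA levels do not show. In mammary epithelium the family is known for its part in lumen formation and in involution, and in HER2-driven tumors Bim, the product of Bcl2l11, is a known mediator of cell death after kinase inhibition.

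The upstream sequences of the 4 members with the highest pairwise correlations across tumors, given further on, are shown here, as given by RefSeq for GRCm38.p6, 5′ to 3′ on the strand of the gene. Each holds the 250 bases before an annotated start. Capitals mark matches on either strand to GGGCGG, the GC box, or to GTAAACA, the core bound by forkhead FOXO factors.
Bcl2l11 (chr2:128125788-128126037, plus strand): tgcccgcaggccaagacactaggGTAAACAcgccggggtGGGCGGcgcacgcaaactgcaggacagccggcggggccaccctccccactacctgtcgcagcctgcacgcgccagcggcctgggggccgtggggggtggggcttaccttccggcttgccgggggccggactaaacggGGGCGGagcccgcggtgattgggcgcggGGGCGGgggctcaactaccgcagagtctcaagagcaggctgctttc
Mcl1 (chr3:95658471-95658720, plus strand): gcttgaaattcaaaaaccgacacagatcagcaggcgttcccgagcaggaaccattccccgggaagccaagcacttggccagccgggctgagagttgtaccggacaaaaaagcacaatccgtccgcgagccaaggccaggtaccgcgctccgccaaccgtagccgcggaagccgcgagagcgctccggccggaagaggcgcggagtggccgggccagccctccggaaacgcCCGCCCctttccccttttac
Bcl2 (chr1:106714291-106714540, minus strand): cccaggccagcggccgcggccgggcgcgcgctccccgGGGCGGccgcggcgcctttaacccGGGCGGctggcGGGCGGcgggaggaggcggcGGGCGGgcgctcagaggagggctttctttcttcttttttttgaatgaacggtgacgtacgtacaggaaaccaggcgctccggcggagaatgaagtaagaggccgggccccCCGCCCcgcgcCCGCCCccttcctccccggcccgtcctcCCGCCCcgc
Bcl2l1 (chr2:152831729-152831978, minus strand): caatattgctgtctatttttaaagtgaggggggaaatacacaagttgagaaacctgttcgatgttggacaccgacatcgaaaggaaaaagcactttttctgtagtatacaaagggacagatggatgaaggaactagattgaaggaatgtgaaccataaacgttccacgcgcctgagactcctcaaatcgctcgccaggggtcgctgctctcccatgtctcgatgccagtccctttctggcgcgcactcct
The window of Bcl2l11 shown here held 1 match to GTAAACA, 227 bases before the start, and 3 GC boxes. Another Bcl2l11 window, at chr2:128127325-128127574, held 0 matches to GTAAACA and 2 GC boxes. The Bcl2 window held 7 GC boxes, the Mcl1 window 1, and this Bcl2l1 window 0. Annotated starts gave 15 windows for 9 of the 10 members, because windows of Pmaip1 were left out before counting. Of these 15, 10 held GGGCGG, 2 held GTAAACA and 1, a Bcl2l1 window not shown, held AGGTCA, the core bound by nuclear receptors. Some of the 15 overlap each other or annotated exons. Of 32851 mouse windows of the same length, taken without the exclusion of Pmaip1, 32.7% held GGGCGG, 3.17% held GTAAACA and 14% held AGGTCA. These matches describe letters only and carry no evidence of binding.

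The tumors held 16583413 to 25925027 counts each (median 19342536), and 3 counts, taken as the floor, corresponded to 0.111 to 0.184 CPM. Luminal epithelial markers summed to between 2683 and 5464 normalized CPM in the 12 tumors, while the 5 B cell markers summed to at most 2.66. Counts listed for Erbb2 lay between 93.8 and 173 normalized CPM, and reads of the transgene were not told apart from those of the mouse gene. Bexarotene replicate 1 stood apart. On the first principal component, which held 33.6% of the variance, it scored −115, against −16.2 to 34.2 for the rest. The 6 fibroblast markers summed to 10320 normalized CPM in that tumor and to between 65.2 and 780.2 in the other tumors, and its luminal sum was the lowest of the 12. It was the highest of the 12 tumors for 19.1% of all genes tested, and among the 10 members only for Pmaip1.

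Per gene length, Mcl1 was the most abundant member and Pmaip1 the least. The FPKM level, read count per length and per library size, averaged 107.5 ± 16.65 for Mcl1 (SD, n = 12), 69.2 ± 12.9 for Bax, 60.8 ± 12.1 for Bcl2l1, 50.8 ± 4.98 for Bad and 45.8 ± 5.05 for Bak1. It averaged 30.1 ± 7.45 for Bid, 22.0 ± 11.8 for Bcl2l11, 21.2 ± 3.59 for Bbc3, 14.2 ± 2.86 for Bcl2 and 0.976 ± 1.26 for Pmaip1. Neighbors in this order mostly overlapped in range. Bax exceeded Bcl2l1 in 9 of 12 tumors, Bcl2l1 exceeded Bad in 9, Bad exceeded Bak1 in 9, and Bcl2l11 exceeded Bbc3 in 6. The order of these neighbors thus changed between tumors, and no paired test of their levels was run. Mcl1 exceeded Bax in 11 tumors, Bak1 exceeded Bid in 12, and Bcl2 exceeded Pmaip1 in 12 with no overlap in range. The middle of the order depended on gene length. The deposited FPKM divide by a length below the listed gene length for every member except Pmaip1, for example 2126 against 8029 bases for Bcl2l11. With the listed lengths Mcl1 stayed at rank 1, Bax at 2 and Pmaip1 at 10, while Bcl2l1 went from rank 3 to 5 and Bcl2l11 from 7 to 9.

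**Figure D1:**
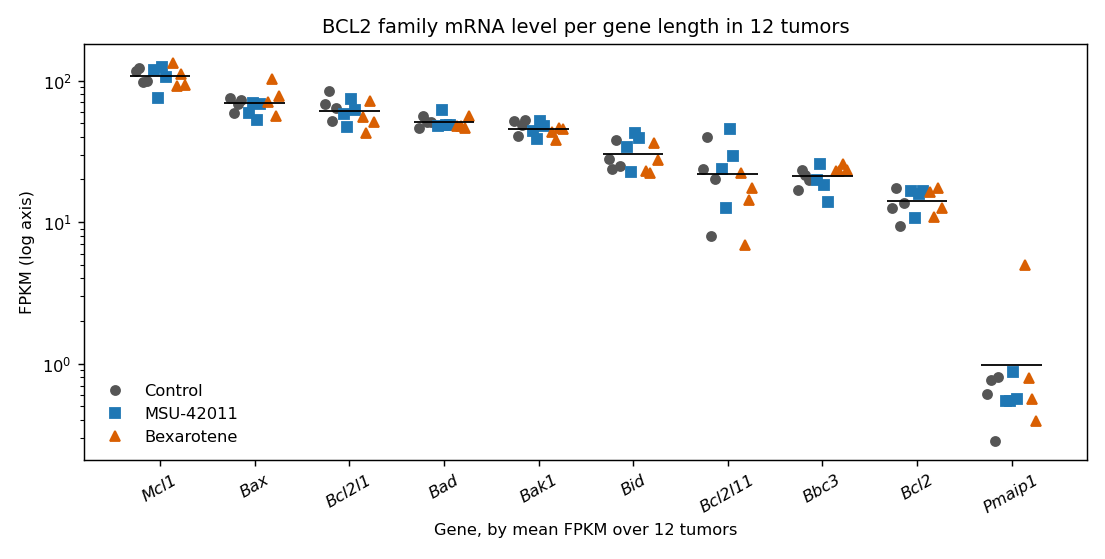
FPKM of each of the 10 members (log axis) in the 12 tumors, with 1 point per tumor colored by diet and a bar at the mean of 12. Mcl1 is highest at a mean of 107.5, Pmaip1 is lowest at 0.976, and 1 bexarotene tumor lies far above the other Pmaip1 values.

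Taken by role, Mcl1 made up between 54.8% and 65.0% of the summed FPKM of the 3 anti-apoptotic members in every tumor. This share and the ratios below rest on the lengths used in the deposited FPKM, and would differ with the listed lengths. With the listed lengths the means over all tumors were 67.25 for Mcl1, 19.51 for Bcl2l1 and 7.752 for Bcl2. The ratio of the anti-apoptotic sum to the sum of effectors and BH3-only members was 0.784 ± 0.107 on the control diet (SD, n = 4), 0.749 ± 0.122 on MSU-42011 and 0.747 ± 0.151 with bexarotene. These means lay within 1 SD of each other. Single tumors ranged more widely, from 0.577 in MSU-42011 replicate 2 and 0.600 in bexarotene replicate 2 to 0.917 in control replicate 2. The ratio of Bcl2 to Bax was 0.198 ± 0.0682, 0.245 ± 0.0653 and 0.201 ± 0.0864 in the same order of diets.

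The diets left no member past the threshold of the test. Among the 3 groups in 1 test, edgeR called 0 of 10 members and 0% of all genes, and counted 0 members and 4.24% of all genes at an unadjusted p under 0.05. MSU-42011 was set against control to ask how this agonist changes the tumor transcriptome. EdgeR's quasi-likelihood test called 0 of 10 members, and 0% of the 15504 genes, at a Benjamini-Hochberg adjusted p under 0.05. At an unadjusted p under 0.05 it counted 0 members and 1.99% of all genes, while DESeq2 called 1 gene, which was no member. The groups overlapped for all 10 members, and 1.97% of all genes had groups that did not overlap. Of the members 3 were higher and 7 lower, with a median log2 fold change of −0.078, beside 50.3% higher, 49.7% lower and a median of 0.0016 over all genes.

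Bexarotene against control gave the same count for the members. EdgeR called 0 of 10 members and 0% of all genes, and at an unadjusted p under 0.05 it counted 0 members and 6.44% of all genes. DESeq2 called 6 genes, none of them a member. Groups overlapped for all 10 members, against 2.03% of all genes whose groups did not overlap. Here 4 members were higher and 6 lower, with a median log2 fold change of −0.080, beside 55.3% higher, 44.7% lower and a median of 0.030 over all genes. Both comparisons share the 4 control tumors.

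MSU-42011 against bexarotene compared the agonists at the same dose and time, the single pair of compounds in the study. EdgeR called 0 of 10 members and 0% of all genes, with 0 members and 3.95% of all genes at an unadjusted p under 0.05. DESeq2 called 25 genes, and again no member. Groups overlapped for all 10 members, and did not overlap for 1.17% of all genes. There were 6 members higher and 4 lower with MSU-42011, with a median of 0.040, beside 45.1% higher, 54.9% lower and a median of −0.024 over all genes. The intervals below give the differences between the agonists that remain possible, and a p that misses the threshold does not show that the agonists act alike.

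**Figure D2:**
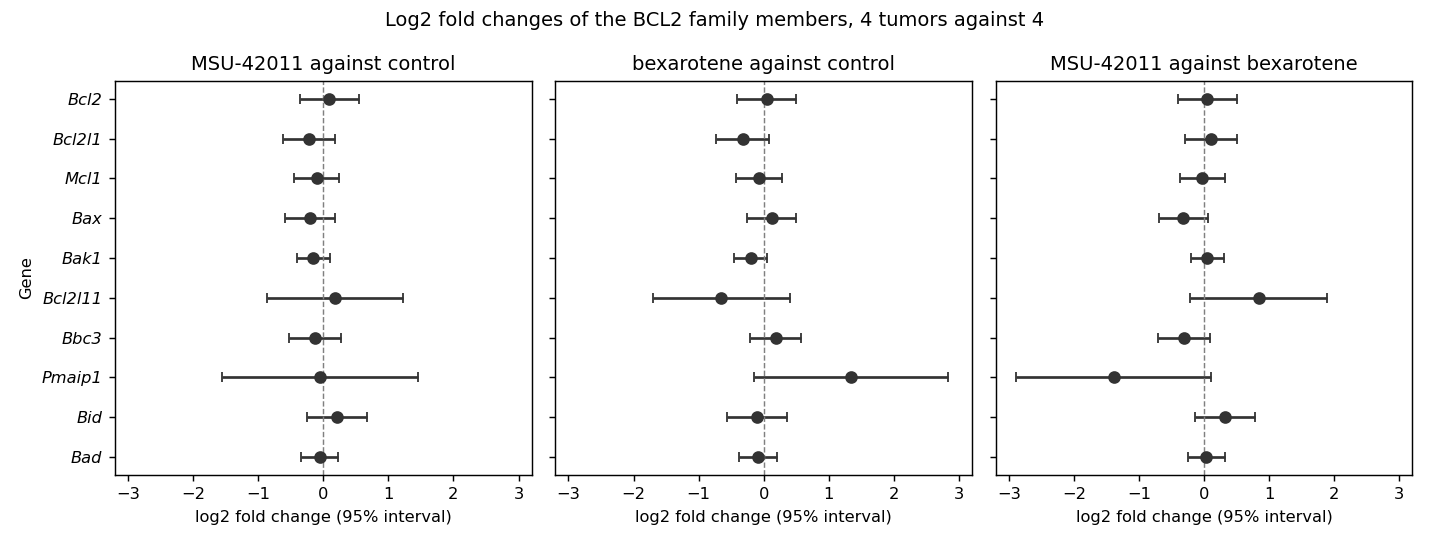
Log2 fold change of each of the 10 members with its 95% interval (edgeR fit of 12 tumors) in the 3 comparisons of 4 tumors against 4. Every interval crosses 0, and those of Bcl2l11 and Pmaip1 are the widest, reaching from −2.89 to 0.11 for Pmaip1 in MSU-42011 against bexarotene.

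Among the anti-apoptotic members, Bcl2l1, which encodes BCL-XL and lies at chr2:152780668-152831728 on the minus strand (ENSMUSG00000007659), showed the largest differences from control. Its normalized CPM, the read count scaled to library size after edgeR's TMM, was 102, 129, 75.7 and 98.2 in control replicates 1 to 4. It was 84.0, 69.9, 104 and 89.8 in the MSU-42011 tumors and 78.4, 62.1, 103 and 80.0 in the bexarotene tumors, in replicate order. Control replicate 2 was the highest of all 12 tumors and bexarotene replicate 2 the lowest, and 1 tumor of each treated group lay below all controls. The log2 fold change was −0.22 ± 0.19 (SE) with MSU-42011 and −0.33 ± 0.19 with bexarotene (edgeR adjusted p = 1.00 and 0.85). The exact permutation test (two-sided, smallest possible p = 0.0286) gave p = 0.314 and 0.286. Between the agonists the ratio of MSU-42011 to bexarotene was 1.08, with a 95% interval of 0.813 to 1.42.

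Mcl1, which encodes a short-lived anti-apoptotic protein, lies at chr3:95658788-95663176 on the plus strand (ENSMUSG00000038612). Control replicates 1 to 4 held 255, 275, 207 and 219.7 normalized CPM, the MSU-42011 tumors 249, 163, 256 and 224, and the bexarotene tumors 272, 194, 231 and 212. The treated and control ranges overlapped, with MSU-42011 replicate 2 the lowest tumor. The ratios to control were 0.932 with MSU-42011 (95% interval 0.733 to 1.18) and 0.951 with bexarotene (0.748 to 1.21).

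Bcl2, the founding member, lies at chr1:106538178-106714274 on the minus strand (ENSMUSG00000057329). It measured 64.7, 91.7, 46.8 and 71.7 normalized CPM in the control tumors, 81.5, 54.0, 76.2 and 81.7 with MSU-42011, and 77.8, 54.4, 84.8 and 66.8 with bexarotene. Both the highest and the lowest of the 12 tumors were controls. The ratio to control was 1.07 (95% interval 0.782 to 1.46) with MSU-42011 and 1.03 (0.756 to 1.41) with bexarotene. Replicate 2 of both treated groups was the lowest of its group for each of Bcl2, Bcl2l1 and Mcl1.

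Of the effectors, Bax, a pore-forming protein that moves to mitochondria on activation, differed more between the agonists than from control. The gene lies at chr7:45461697-45466898 on the minus strand (ENSMUSG00000003873). Control replicates measured 49.4, 40.05, 43.8 and 48.7 normalized CPM, MSU-42011 replicates 37.5, 45.2, 32.5 and 43.0, and bexarotene replicates 43.7, 65.5, 35.6 and 53.1. Bexarotene replicates 2 and 4 lay above every control, and MSU-42011 replicates 1 and 3 below every control, while the ranges of the groups overlapped. The log2 fold change was −0.20 ± 0.17 with MSU-42011, 0.12 ± 0.17 with bexarotene and −0.32 ± 0.17 between MSU-42011 and bexarotene. The edgeR adjusted p-values were 1.00, 0.94 and 0.997. The ratio of MSU-42011 to bexarotene had a 95% interval of 0.615 to 1.04, and exact permutation tests gave p = 0.143, 0.686 and 0.229 for the 3 comparisons.

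Bak1, the effector that sits in the mitochondrial membrane before activation, lies at chr17:27019810-27029009 on the minus strand (ENSMUSG00000057789). Its normalized CPM was 68.5, 55.5, 62.8 and 71.5 in control tumors, 56.4, 50.2, 65.0 and 61.2 with MSU-42011, and 53.7, 49.5, 58.5 and 63.1 with bexarotene. All 4 bexarotene tumors and 3 of 4 MSU-42011 tumors lay below the control mean of 64.6 ± 7.02. The log2 fold change was −0.15 ± 0.12 with MSU-42011 and −0.20 ± 0.12 with bexarotene (edgeR adjusted p = 1.00 and 0.85). Its biological coefficient of variation within groups was 0.143, percentile 10.8 among all genes tested, so its intervals were narrow, at 0.755 to 1.07 and 0.729 to 1.04 for the ratios to control.

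Among the BH3-only members, Bcl2l11 varied widely in all 3 groups. It encodes Bim, which binds all anti-apoptotic members, and lies at chr2:128126038-128162547 on the plus strand (ENSMUSG00000027381). Control replicates 1 to 4 measured 51.9, 88.9, 16.8 and 44.7 normalized CPM. The MSU-42011 tumors measured 49.4, 26.7, 92.3 and 61.4, and the bexarotene tumors 45.3, 14.5, 29.7 and 39.2. The highest tumor, MSU-42011 replicate 3, held 6.37 times the level of the lowest. The lowest tumor was a bexarotene tumor, with control replicate 3 next. Its biological coefficient of variation was 0.472, percentile 83.2 among all genes tested. The 3 highest MSU-42011 tumors exceeded every bexarotene tumor, and the groups overlapped through MSU-42011 replicate 2. MSU-42011 tumors averaged 57.4 ± 27.3 (SD, n = 4) and bexarotene tumors 32.2 ± 13.4, a log2 difference of 0.84 ± 0.49 (SE) with edgeR adjusted p = 0.997. The 95% interval of that ratio was 0.859 to 3.72, and the exact two-sided permutation test gave p = 0.143. Against control, the log2 fold change was 0.18 ± 0.48 with MSU-42011 and −0.65 ± 0.49 with bexarotene (edgeR adjusted p = 1.00 and 0.89). With a tumor left out in turn the bexarotene value ran from −0.94 (control replicate 3 removed) to −0.24 (control replicate 2 removed), and it was −0.41 with bexarotene replicate 2 removed. The difference between the agonists ran from 0.51 (MSU-42011 replicate 3 removed) to 1.07 (MSU-42011 replicate 2 removed).

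Bbc3, which encodes PUMA, a p53 target, lies at chr7:16308393-16318205 on the plus strand (ENSMUSG00000002083). It measured 15.4, 21.9, 19.0 and 18.7 normalized CPM in control tumors, 17.5, 23.3, 15.6 and 12.3 with MSU-42011, and 19.8, 20.6, 22.5 and 22.2 with bexarotene. The bexarotene tumors were the tightest group, at 21.3 ± 1.29 (SD, n = 4), and all 4 lay above the control mean of 18.8 ± 2.64. Of the MSU-42011 tumors 3 lay below every bexarotene tumor and 1, replicate 2, lay above every one. The log2 difference between MSU-42011 and bexarotene was −0.31 ± 0.18, with a 95% interval of the ratio of 0.614 to 1.06 (edgeR adjusted p = 0.997). The exact permutation test gave p = 0.171 for that pair and p = 0.143 for bexarotene against control.

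Pmaip1, which encodes NOXA, a BH3-only protein that binds MCL1, was the lowest member and stood at 2.24 normalized CPM or less in all tumors but 1. Its reads numbered 28, 45, 14 and 52 in control replicates 1 to 4, 26, 24, 41 and 35 with MSU-42011, and 339, 44, 30 and 18 with bexarotene. These were 1.66, 2.13, 0.748 and 2.24 normalized CPM in control tumors, 1.43, 1.45, 2.22 and 1.47 with MSU-42011, and 12.5, 2.10, 1.45 and 1.10 with bexarotene. Bexarotene replicate 1 alone was high, and the other 3 bexarotene tumors lay inside the control range. The log2 fold change of bexarotene against control, 1.34 ± 0.69 (edgeR adjusted p = 0.81), rested on that tumor and was −0.13 without it. MSU-42011 against bexarotene went from −1.39 to 0.077 in the same way. In that tumor 6 of 6 fibroblast, 5 of 5 endothelial and 6 of 7 macrophage markers were at their highest of the 12 tumors. So were all listed adipocyte and skeletal muscle markers. The fibroblast sum there was 10320 normalized CPM, against 65.2 to 390.2 in control tumors, 147.7 to 385 with MSU-42011 and 122 to 780.2 in the other bexarotene tumors, and the fibroblast genes Dcn and Lum were at 0 in at least 1 other tumor. The part of any of these cell types in the Pmaip1 level was not tested. The gene listed for Pmaip1 lies on chromosome 18.

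Bid, which links death receptors to mitochondria after cleavage by caspase-8, lies at chr6:120891930-120916853 on the minus strand (ENSMUSG00000004446). It measured 34.8, 30.5, 46.6 and 31.9 normalized CPM in control tumors, 41.5, 27.9, 50.05 and 47.5 with MSU-42011, and 26.9, 27.3, 43.8 and 35.9 with bexarotene. MSU-42011 replicates 3 and 4 were the highest of the 12 tumors and bexarotene replicates 1 and 2 the lowest, with overlap between all groups. The log2 difference of MSU-42011 to bexarotene was 0.32 ± 0.21 (95% interval of the ratio 0.904 to 1.72, edgeR adjusted p = 0.997).

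Bad, a BH3-only protein held inactive by phosphorylation downstream of growth factor receptors, had the narrowest range over the 12 tumors. It measured 42.5, 53.4, 45.9 and 48.3 normalized CPM in control tumors, 42.1, 56.5, 41.8 and 42.6 with MSU-42011, and 41.3, 43.0, 41.0 and 53.8 with bexarotene. Of the treated tumors 3 in each group lay between 41.0 and 43.0, and the remaining tumor of each group lay above every control. The highest tumor held 1.38 times the level of the lowest, and the ratios to control were 0.963 (95% interval 0.790 to 1.17) and 0.942 (0.772 to 1.15).

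**Figure D3:**
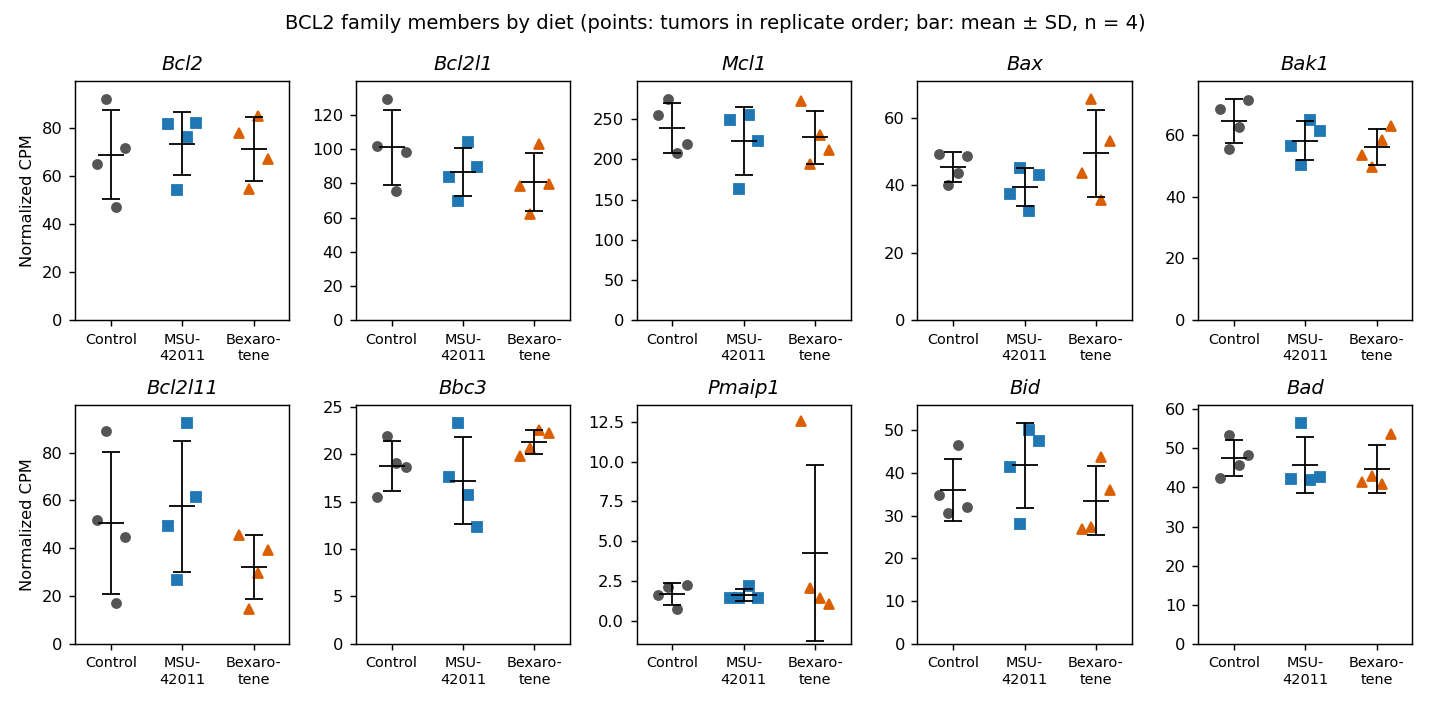
Normalized CPM of each member by diet, with 1 point per tumor in replicate order and the mean ± SD of 4 tumors as bars. Groups overlap in every panel, Bcl2l11 spreads from 14.5 to 92.3, and 1 bexarotene tumor carries the Pmaip1 difference at 12.5.

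The members were also compared with each other across all 12 tumors, without removing the means of the diet groups. Over the 12 tumors, Pearson's r and Spearman's rho of log2 normalized CPM were computed for all 45 pairs of members, with permutation tests of 100000 resamples. After Benjamini-Hochberg adjustment over the 45 pairs, 0 pairs passed 0.05, and 8 had an unadjusted p under 0.05. Pairs of other genes were not counted in this way, so the 8 do not set the members apart from other genes. Bcl2l1 and Bcl2l11 gave r = 0.78 and rho = 0.77 (permutation p = 0.0028 and 0.0052, adjusted p = 0.070 and 0.12). Without the 2 tumors farthest from the median of Bcl2l1, r was 0.58. For each pair, the 2 tumors left out were chosen on the gene named first. Bcl2 and Bcl2l11 gave r = 0.78 and rho = 0.62 (permutation p = 0.0031 and 0.035, adjusted p = 0.070 and 0.22), and r = 0.67 without 2 tumors. Mcl1 and Bcl2l11 gave r = 0.70 and rho = 0.81 (permutation p = 0.011 and 0.0026, adjusted p = 0.10 and 0.12), and r = 0.72 without 2 tumors. The 3 pairs among Bcl2, Bcl2l1 and Mcl1 had r between 0.69 and 0.72. Control replicate 2 and MSU-42011 replicate 3 were high, and bexarotene replicate 2 and control replicate 3 low, for Bcl2l11 together with Bcl2l1. The members of a pair were measured in the same library, and each diet group held too few tumors for r within it.

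**Figure D4:**
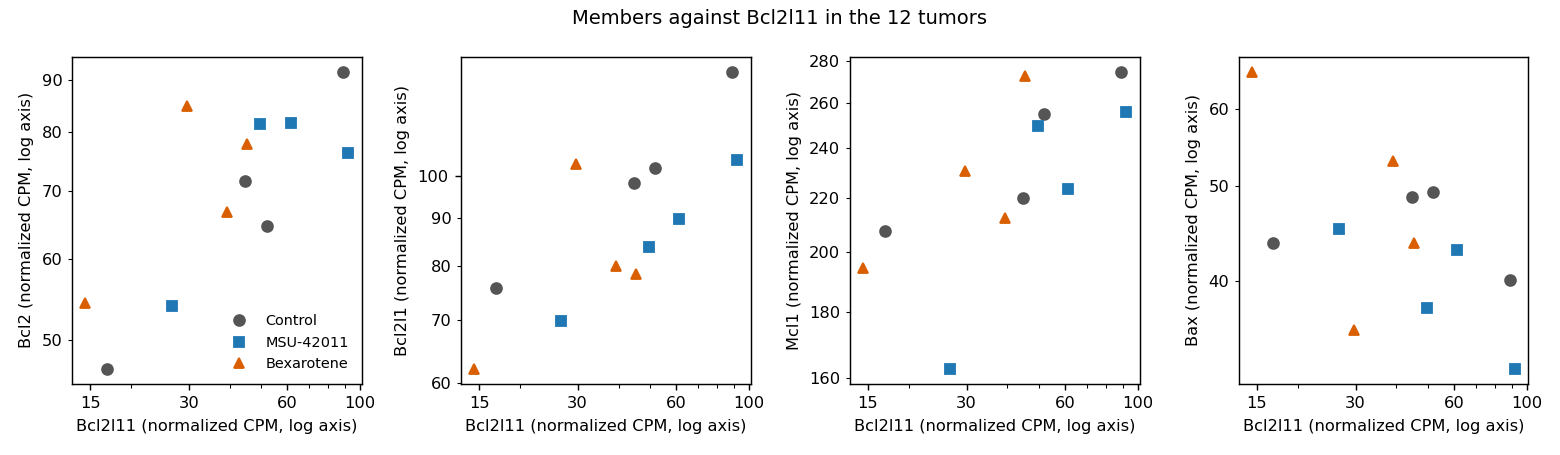
Normalized CPM of Bcl2, Bcl2l1, Mcl1 and Bax against that of Bcl2l11 (log axes) in the 12 tumors, colored by diet. The first 3 panels slope upward (r = 0.78, 0.78 and 0.70) with the diets intermixed. Bax has r = −0.57, which is −0.045 without the 2 tumors farthest from the median of Bax.

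Values of the members beside broader axes of the data were compared after the values had been seen, and are given as descriptions. For that reason the p-values computed for these correlations are not given. The second principal component of all genes tested held 17% of the variance and did not separate the diets. With it Bcl2l1 had r = 0.84 and rho = 0.88 over the 12 tumors, Bcl2l11 r = 0.84 and rho = 0.92, Mcl1 r = 0.74 and rho = 0.82, Bcl2 r = 0.70 and rho = 0.69, and Bax r = −0.72 and rho = −0.70. Without the 2 tumors farthest from the median these r were 0.71, 0.76, 0.52, 0.53 and −0.64. The other members had r = 0.57 (Bid), 0.55 (Bak1), −0.51 (Bbc3), −0.35 (Bad) and −0.0099 (Pmaip1), and r for Bid and Bak1 was 0.305 and 0.13 without 2 tumors. The tumors also differed in the level of long genes relative to short ones. Each gene's log2 CPM was taken relative to its mean over the tumors, and the median over 3101 genes of at least 7032 listed bases, minus that over 3104 genes of at most 2003 bases, ran from −0.25 in bexarotene replicate 4 to 0.32 in MSU-42011 replicate 3. Against this index Bax, with a listed length of 1576 bases, had r = −0.79 and rho = −0.89, Bad, at 2007 bases, had r = −0.65 and rho = −0.76, and Mcl1 had r = 0.68 and rho = 0.69. The values were r = 0.58 for Bcl2, 0.56 for Bcl2l11, 0.46 for Pmaip1, 0.45 for Bid, 0.39 for Bcl2l1, 0.13 for Bak1 and −0.41 for Bbc3. All 4 control tumors lay between −0.076 and −0.039 on the index, while both treated groups spread to either side. The part of this index in the level of Bax was not tested.

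**Figure D5:**
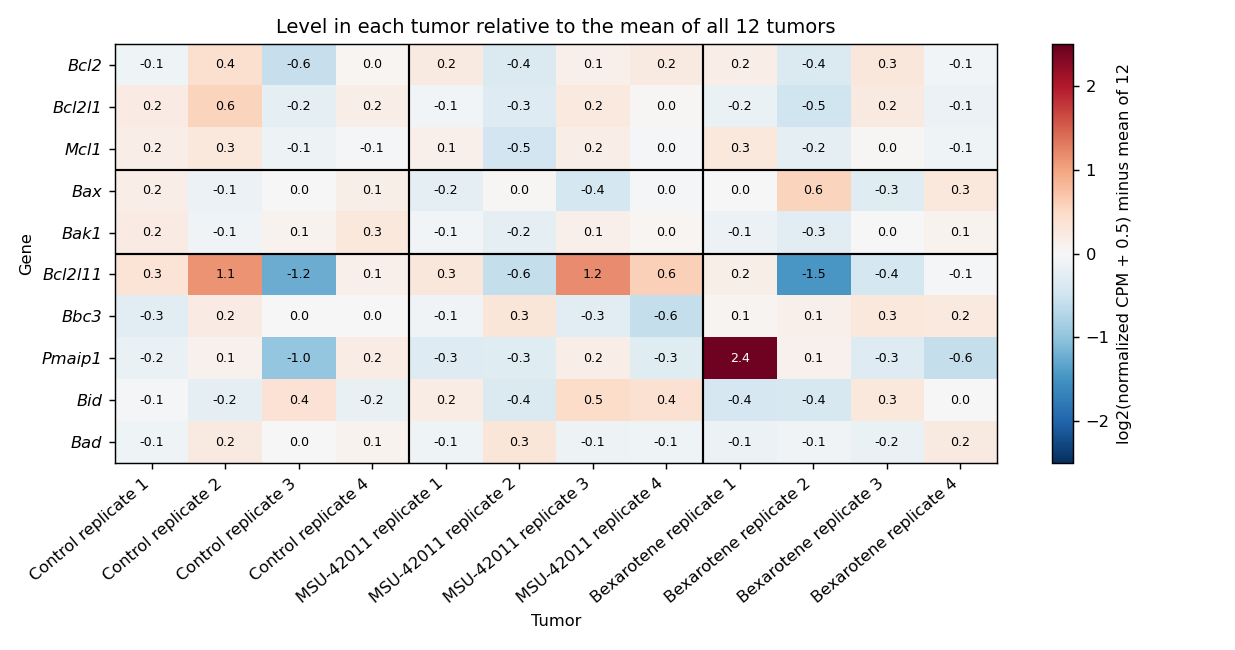
Level of each member in each of the 12 tumors as log2(normalized CPM + 0.5) minus the mean of 12, with diets separated by vertical lines and roles by horizontal lines. Bcl2l11 varies in every diet group, Pmaip1 stands out in bexarotene replicate 1, and Bad and Bak1 stay close to 0.

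The gene most like each member among the other 15503 genes tested was found by Pearson's r of log2 normalized CPM over the 12 tumors, as a description of these libraries. Mcl1 was nearest to Arhgef17 (r = 0.97), Bcl2l1 to Gm15867 (0.94), Bad to Tmem80 (0.93), Bax to Lsm12 (0.93) and Bak1 to Ppp2ca (0.93). Bcl2 was nearest to Fech (0.90), Bbc3 to Nat8 (0.89), Bcl2l11 to Wnt5b (0.89) and Bid to Cyb561a3 (0.88). Pmaip1 was nearest to Myo5a (0.99), and without bexarotene replicate 1 this r was 0.93.

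Other genes of the pathway were taken from 8 lists, of which the test across all genes called 0 members in any comparison. Of 12 tested other BCL2 family genes, 3 were higher with MSU-42011 and 6 with bexarotene than in control (medians −0.11 and 0.042). Over all genes, 50.3% and 55.3% were higher. Bcl2a1a, an anti-apoptotic gene of blood cells, was the only one of the 12 at an unadjusted p under 0.05. It was lower with MSU-42011 than with bexarotene (log2 difference −1.14, edgeR unadjusted p = 0.033, adjusted p = 0.997). At 0.293 to 1.29 normalized CPM it lay close to the floor, and reads of the near-identical Bcl2a1 copies may be split between them. Bcl2l2, which encodes BCL-W, measured 86.6 ± 10.8 normalized CPM on the control diet, 85.5 ± 15.6 with MSU-42011 and 97.8 ± 4.996 with bexarotene (SD, n = 4). Hrk, Bcl2l10 and Bcl2a1d did not pass the filter.

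Downstream of the pore, all 9 apoptosome and mitochondrial factors and all 8 genes of apoptotic caspases and the caspase-activated DNase with its inhibitor were tested and none reached an unadjusted p of 0.05 by edgeR in a comparison. Their median log2 fold changes were −0.051 and −0.050 with MSU-42011 and −0.050 and −0.093 with bexarotene. Apaf1, the scaffold of the apoptosome, measured 5.70 ± 1.66, 6.37 ± 1.65 and 8.69 ± 6.39 normalized CPM with control diet, MSU-42011 and bexarotene (SD, n = 4), with its highest value in bexarotene replicate 1. The 6 inhibitor of apoptosis genes were all higher than in control with MSU-42011 and 5 of 6 with bexarotene (medians 0.14 and 0.14). Over all genes, 50.3% and 55.3% were higher. Birc2, a ubiquitin ligase that restrains caspase-8 signaling, was higher with bexarotene by 0.31 ± 0.11 on the log2 scale (edgeR unadjusted p = 0.015, adjusted p = 0.76), and 0 of the 6 reached an unadjusted p of 0.05 in either comparison with control without bexarotene replicate 1, against 1 of 6 in MSU-42011 against bexarotene.

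Upstream, 9 death receptor genes had medians of 0.039 with MSU-42011 and −0.013 with bexarotene, with 0 at an unadjusted p under 0.05. Of 14 genes of p53 and its targets, 11 were higher with MSU-42011 and 12 with bexarotene (medians 0.14 and 0.13). Over all genes, 50.3% and 55.3% were higher. Without bexarotene replicate 1 the bexarotene median of the 14 was 0.073. Phlda3, a p53 target that restrains AKT, was the only one of the 14 at an unadjusted p under 0.05. It was higher with bexarotene by 1.00 ± 0.44 on the log2 scale (edgeR unadjusted p = 0.041, adjusted p = 0.76). It was highest in bexarotene replicate 1, and without that tumor 0 of the 14 reached that level. The other 6 regulators of BH3-only genes, among them Foxo3, which measured 109.6 ± 10.2, 105.8 ± 6.76 and 96.6 ± 19.0 normalized CPM in the order of diets, had medians of −0.068 and −0.029. Of 5 genes of MCL1 turnover (medians 0.21 and 0.078), Huwe1, which encodes a ubiquitin ligase for MCL1, was higher with MSU-42011 by 0.21 ± 0.090 (edgeR unadjusted p = 0.040, adjusted p = 1.00). It measured 202 ± 11.5 normalized CPM on the control diet, 233 ± 11.8 with MSU-42011 and 213 ± 16.01 with bexarotene (SD, n = 4).

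Some member counts may hold reads of neighboring genes. In the GENCODE M21 annotation of GRCm38, which gives 8 of the 10 members the same span as the deposited tables, 20.5% of the exon bases of Bad were shared with Gpr137, 18.2% of those of Bak1 with Ggnbp1, 17.7% of those of Bid with Bcl2l13 and 6.09% of those of Bcl2 with D630008O14Rik, all on the opposite strand. Bad is 1 of the 2 members whose span differs, and its share is of 2558 annotated exon bases against 2007 listed in the deposited table. Bax shared 12.2% with Gm45808 on the same strand. The strand setting of the counting is not given in the sources used here, so reads in these stretches cannot be assigned to 1 gene.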

How the data were processed

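RNA-seq of 12 tumors was analysed from 2 deposited tables. One, from the authors, gives reads per gene and tumor as whole-number counts that were not normalized. The second table holds the authors' FPKM values, in which each count is scaled to the library total and to a gene length. Libraries were prepared by poly(A) enrichment from 1 ug of total RNA, and the submitters' processing notes name STAR 2.6.1d, featureCounts 1.5.0-p3 and DESeq2. The genome build and the strand setting are not given in the sources used here. Sample groups came from the labels, all 12 tumors were used, and 0 columns of per-sample values were left unmapped.

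Counts were scaled by TMM, filtered with edgeR's filterByExpr by group and tested with edgeR (glmQLFit and glmQLFTest, a quasi-likelihood test) in 1 fit of all 12 tumors with 3 group means and no covariate, with Benjamini-Hochberg adjustment over 15504 genes and a threshold of 0.05. Intervals are at 95%. For single members an exact permutation test (two-sided, 35 splits) was added, and log2 levels for correlations used a pseudocount of 0.5. The tools were edgeR 4.0.16, DESeq2 1.42.0 and limma 3.58.1 in R 4.3.3. Only the fits with these tools were tested on simulated counts. Depth ran from 16583413 to 25925027 counts per tumor, and floors cover counting error only.

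The members, the 8 other pathway lists and the 11 cell type marker lists were written by hand, with earlier results of these data known. Named genes were the 10 members, up to 3 genes of each other pathway list by p in the test of all 3 groups, and the gene most like each member. Marker genes and genes of the lists that did not pass the filter were named outside this rule. Alternatives were DESeq2 size factors, other filters, each tumor left out, the replicate number as a term, DESeq2 (Cook's distance filter on or off), limma on log2(FPKM + 1) and log2(FPKM + 0.1), and the 2 groups of a comparison alone. Listed gene lengths, lists without bexarotene replicate 1, the second principal component and the index of long against short genes were added after the data were seen. Tables of the authors' comparisons and the reads were not used here.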

Additional observations from a re-analysis of the deposited data

Results flagged for a closer look

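In each group of 4 tumors the gap between an extreme tumor and its nearest neighbor was divided by the range and compared with Dixon's 95% critical value for 4 samples. Of 30 groups, 10 members in 3 diets, 4 exceeded it. The nominal expectation is about 1.5, which holds for independent, normally distributed values, while the members were measured in the same tumors. The share over all genes was not taken, so the count does not set the members apart. Pmaip1 in bexarotene replicate 1, at 12.5 normalized CPM, lay far above the nearest tumor of its group at 2.10. Pmaip1 in MSU-42011 replicate 3, at 2.22 normalized CPM, lay above the nearest at 1.47, although both lie inside the control range. Bad in MSU-42011 replicate 2 measured 56.5 normalized CPM against 42.6 in the nearest tumor. In bexarotene replicate 4 Bad measured 53.8, against 43.0 in the nearest tumor. MSU-42011 replicate 2 and bexarotene replicate 4 also held low values of the index of long against short genes (−0.20 and −0.25), but bexarotene replicate 2, at −0.23, held 43.0 normalized CPM of Bad. The part of the index in the level of Bad was not tested.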

How the results depend on the processing

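No member passed the threshold under any alternative, the smallest adjusted p being 0.43 for Bcl2l1 in bexarotene against control without bexarotene replicate 3 (edgeR). Of 630 member values under an alternative, 29 of 360 with a tumor left out and 5 others changed sign, over 16 of 30 members and comparisons. With a tumor left out in turn, log2 fold changes of MSU-42011 against control ran −0.051 to 0.26 for Bcl2, −0.17 to 0.022 for Mcl1, −0.14 to 0.60 for Bcl2l11, −0.31 to 0.0036 for Bbc3, −0.29 to 0.12 for Pmaip1 and −0.17 to 0.0044 for Bad. Bexarotene against control ran −0.10 to 0.21 for Bcl2, −0.044 to 0.25 for Bax, −0.13 to 1.65 for Pmaip1 and −0.26 to 0.044 for Bid. MSU-42011 against bexarotene ran −0.060 to 0.17 for Bcl2, −0.0034 to 0.24 for Bcl2l1, −0.10 to 0.096 for Mcl1, −0.0055 to 0.12 for Bak1, −1.70 to 0.077 for Pmaip1 and −0.084 to 0.14 for Bad. For MSU-42011 against control, Pmaip1 was 0.020 with limma on log2(FPKM + 1), 0.080 on log2(FPKM + 0.1) and Bad 0.00086 and 0.00078. The cause of these sign changes was not tested.

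DESeq2 with its filter on Cook's distance called 5 genes among the 3 groups, 1 in MSU-42011 against control, 6 in bexarotene against control and 25 in MSU-42011 against bexarotene, and without that filter 11, 7, 7 and 41, where edgeR called 0. Leaving out 1 tumor gave 0 to 1 edgeR calls among the 3 groups and in bexarotene against control, the 1 without MSU-42011 replicate 2, and 0 in the other comparisons.

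With the replicate block, edgeR called 0 genes in all 3 comparisons, and the member medians were −0.088, −0.086 and 0.036. Under the block Pmaip1 in MSU-42011 against control was 0.031. Replicate numbers showed no clear pairing of the tumors. Deviations of same-numbered tumors correlated between −0.39 and 0.38, over 0.1 in 5 of 12 pairs. Of the 12 tumors, 5 correlated best with a tumor of their own number. These values were not compared with chance, so they cannot exclude a pairing.

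Intervals of the members' ratios were narrowest for Bak1 and Bad and widest for Pmaip1, whose low counts and single high tumor limit every comparison of it.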

Other observations

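Lists of cell type markers are given as medians of log2 fold changes. With MSU-42011 against control the medians were −0.21 for 6 luminal, −0.24 for 3 basal, −0.034 for 6 T cell, −0.18 for 7 macrophage, −0.17 for 2 neutrophil, 0.024 for 6 fibroblast, 0.17 for 5 endothelial and 0.14 for 5 proliferation genes, with 0 of these at an unadjusted p under 0.05 by edgeR. With bexarotene they were −0.21, −1.33, −0.20, 0.82, −0.16, 4, 0.79 and 0.19, and all 6 fibroblast genes were higher at an unadjusted p under 0.05, as were 1 basal, 1 macrophage and 1 endothelial gene, while 1 T cell gene was lower. Without bexarotene replicate 1 the fibroblast median was 0.94 and 0 of 6 reached that level, and the macrophage median was −0.26. The 5 B cell genes did not pass the filter. Adipocyte and skeletal muscle lists kept 1 and 3 genes, with medians of −3.11 and −2.45 with MSU-42011 and −0.21 and 0.65 with bexarotene. Without bexarotene replicate 1 the bexarotene medians were −3.04 and −1.88. The adipocyte gene was Cfd, at 2.49 ± 2.719 normalized CPM on the control diet (SD, n = 4). Listed skeletal muscle markers summed to 115.9 normalized CPM in control replicate 1. They summed to at most 3.503 in the other controls and to between 1.257 and 2.302 with MSU-42011. No marker passed the adjusted threshold.

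Without bexarotene replicate 1, Bcl2l11 differed between MSU-42011 and bexarotene by 1.05 ± 0.52 (SE) on the log2 scale (edgeR adjusted p = 0.94), beside 0.84 with all tumors, and Bax by −0.38 ± 0.19 (edgeR adjusted p = 0.94), beside −0.32.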
